A study of Homo sapiens with 12 samples.

Results

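SF539 is a human cell line that the labels call a glioblastoma (GBM) line, glioblastoma being the most aggressive tumour of the glial lineage of the brain. The comparison was between 2 small interfering RNAs directed at the same gene, PARK2. The 2 arrays of SF539 cells that received PARK2 siRNA#2 were set against the 2 arrays of SF539 cells that received PARK2 siRNA#1, which makes 4 of the 12 arrays of the study, chosen by their titles alone. The other arrays, 2 in each group, held SNB19 cells, also labelled GBM, with PARK2 siRNA#2 or PARK2 siRNA#1, and cells of both lines with a scramble siRNA. Every culture was transfected with Lipofectamine RNAiMAX and harvested 48 h later. SF539 was grown in MEM and SNB19 in DMEM, and the labels give no further genotype for either line. They do not say whether the 2 arrays of a group came from separate cultures, so a p-value reflects no more than how far these arrays differed, and that may be technical variation.

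A small interfering RNA is a short RNA duplex of which one strand guides Argonaute proteins to matching transcripts, which are then cut. Its seed can also pair in part with other transcripts, which is why studies commonly use more than one sequence per gene. PARK2 encodes parkin, a ubiquitin ligase that is recruited by the kinase PINK1 to damaged mitochondria and marks them for removal by autophagy, and that has been described as a tumour suppressor in glioma. PARK2 itself is not analysed here, and the sequences of the siRNAs are not used here, so the contrast carries no measure of how far each siRNA lowered its target. The question it addresses is which genes differed between cells given one PARK2 siRNA and cells given the other.

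The deposited values are log2 expression values from Affymetrix human arrays, with medians of 5.94 to 6.14 and lower quartiles of 3.93 to 4.02 over the 12 arrays. A gene near that quartile has little signal over background, and its change is bounded by it. Replicate arrays correlated over all probe sets with r = 0.991 for siRNA#2 and r = 0.998 for siRNA#1 in SF539. The median gene had an SD of 0.132 between the siRNA#2 arrays and of 0.0636 between the siRNA#1 arrays, on the log2 scale. Of the 20 glial and neural markers measured, the defining astrocyte and glioma markers GFAP, S100B, OLIG2, FABP7 and AQP4 lay near or below the lower quartile on the 4 SF539 arrays, with GFAP at 4.06 and 3.82 with siRNA#2 and 3.67 and 3.49 with siRNA#1. CD44, SOX9, SLC1A3, PDGFRA and CSPG4 were measured well above it, so that only some markers of the labelled tumour type had a signal over background. The leukocyte marker PTPRC, the epithelial markers EPCAM and CDH1 and the endothelial marker CDH5 lay at or below that quartile on all 4 arrays. They do not stand for their lists. The mean level on the 4 arrays was 4.77 to 4.92 over the 13 epithelium markers measured. It was 4.16 to 4.31 over 13 leukocyte markers and 3.80 to 4.02 over 9 endothelium markers.

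Of 8545 genes tested, 232 (2.72%) were called between siRNA#2 and siRNA#1 at an adjusted p under 0.05, in limma fitted to all 12 arrays with Benjamini-Hochberg adjustment. Higher with siRNA#2 were 157 genes (1.84%) and lower were 75 (0.878%). The change reached 2-fold for 60 of them, 47 higher and 13 lower. The siRNA#2 arrays both lay outside the range of the siRNA#1 arrays for all 232 genes called, which was also so for 50.0% of all genes tested. That fit gives every group the same spread, although the siRNA#2 arrays differed more from each other than the siRNA#1 arrays did. With a spread estimated for each group, 23 genes (0.269%) were called, 18 higher (0.211%) and 5 lower (0.0585%), all of them among the 232. No gene was called from the 4 SF539 siRNA arrays alone, where the smallest adjusted p was 0.296 and 943 genes had an unadjusted p under 0.05. Without siRNA#1 replicate 1 the count was 3, without siRNA#1 replicate 2 it was 26, without siRNA#2 replicate 1 it was 2303 (27.0%), and without siRNA#2 replicate 2 it was 156 (1.83%). An adjusted p given "with a spread per group" comes from that second fit.

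The siRNA#2 arrays stood at different distances from the siRNA#1 mean. Replicate 1 differed from that mean by 2-fold or more for 38 genes, 30 higher and 8 lower. Replicate 2 did so for 340 genes, 249 higher and 91 lower. For 31 genes both arrays did so with the same sign, and for 0 genes with opposite signs. Among the 232 genes called, replicate 2 lay farther from the siRNA#1 mean for 198 and replicate 1 for 34. The siRNA#2 arrays differed from each other by at most 0.5 of the change for 138 of the genes called, 89 higher and 49 lower, and by more for 94.

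**Figure D1:**
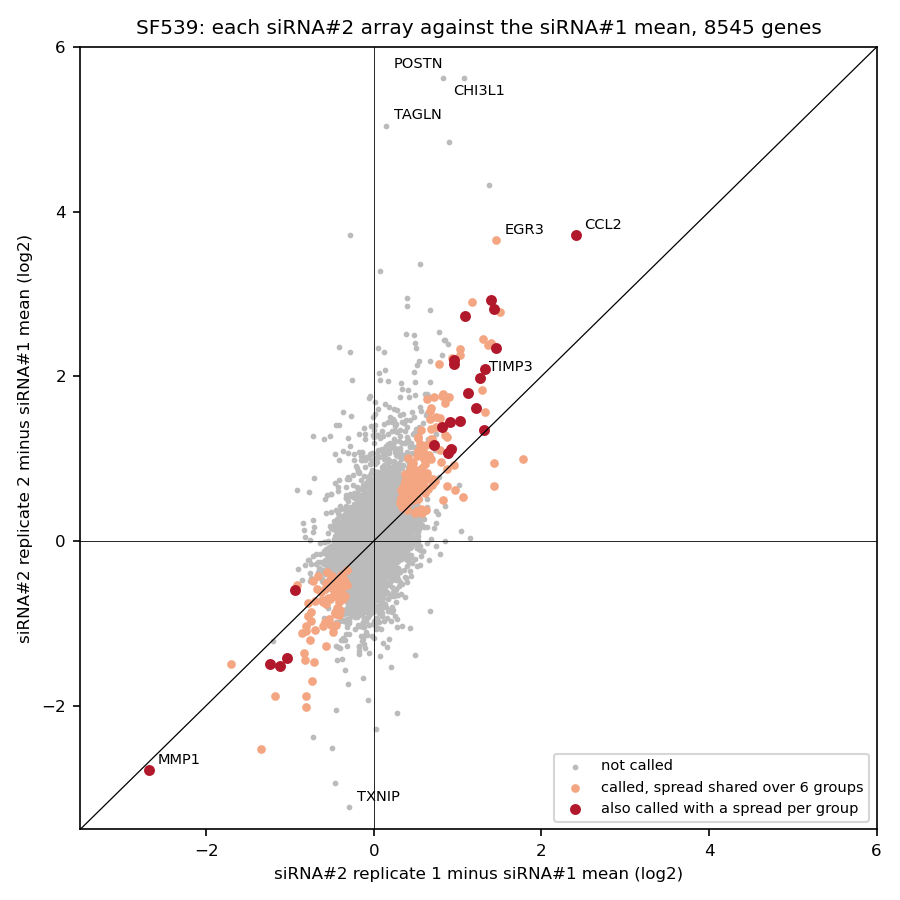
Each point is 1 of 8545 genes, with the log2 level of siRNA#2 replicate 1 minus the siRNA#1 mean on the x axis and that of siRNA#2 replicate 2 minus the same mean on the y axis, and a diagonal line of equal values. The 232 genes called are in light and dark red, the 23 also called with a spread per group in dark red, and the genes farthest above the diagonal, such as TAGLN, CHI3L1 and POSTN, were not called.

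Collagenase MMP1 and stromelysin MMP3, secreted proteases that degrade matrix and are not in the matrix list used here, fell with siRNA#2. In that list, TIMP3, an inhibitor of such proteases, and the matrix proteins lumican (LUM) and type III collagen (COL3A1) rose. The gene lists used here were chosen with earlier results of these data known, so their shares of calls are a description and not a test. Of the 28 matrix and mesenchymal genes measured, 4 were called higher (TIMP3, LUM, COL3A1 and SPARC), against 1.84% of all genes, and 0 lower, against 0.878%. With a spread per group 1, TIMP3, was called, without siRNA#1 replicate 1 there were 0, without siRNA#1 replicate 2 there was 1, and without siRNA#2 replicate 1 there were 25. MMP2, a gelatinase and the protease of the list, had a change of 0.89 that was not called (adjusted p = 0.059). The median change over the list was 0.87 on the log2 scale, against -0.03 over all genes tested. On the 2 siRNA#2 arrays that median was 0.19 for replicate 1 and 1.46 for replicate 2, so most of it came from 1 array.

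MMP1 had a log2 level of 3.17 and 3.06 with siRNA#2, against 6.13 and 5.57 with siRNA#1. The siRNA#2 arrays agreed closely and lay below the lower quartile of the arrays, so the change of -2.73 ± 0.18 (SE) is bounded by background (adjusted p = 0.000444, and 0.0173 with a spread per group). It was the largest fall among the genes called and the one that stayed called with a minimum change of 1.5-fold built into the test. MMP3 had levels of 4.49 and 4.09 with siRNA#2 and of 5.72 and 5.49 with siRNA#1, a change of -1.32 ± 0.16 (adjusted p = 0.00623, and 0.0499 with a spread per group). Both siRNA#2 arrays lay below both siRNA#1 arrays for each protease. Scramble arrays stood near siRNA#1 for them, with MMP1 at 5.47 and 5.78 and MMP3 at 5.22 and 5.54.

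TIMP3 had levels of 12.07 and 12.78 with siRNA#2, against 10.76 and 10.83 with siRNA#1, a change of 1.63 ± 0.20 (adjusted p = 0.00671, and 0.0357 with a spread per group). All 4 of its probe sets took part in a mean change of 1.60, none with the opposite sign. LUM, a small proteoglycan that binds collagen fibrils, had levels of 10.83 and 11.84 with siRNA#2 and 9.43 and 9.44 with siRNA#1. The groups did not overlap, but the siRNA#2 arrays lay 1.01 apart, and the change of 1.90 ± 0.28 missed the threshold with a spread per group (adjusted p = 0.0135, and 0.0514 with a spread per group). COL3A1, at 12.39 and 13.40 with siRNA#2 and 10.85 and 11.21 with siRNA#1, was called likewise in the shared fit only (1.87 ± 0.30, adjusted p = 0.0197, and 0.106 with a spread per group). SPARC, a secreted protein that binds collagen, showed the smallest change of the 4 called members (0.90, adjusted p = 0.0391).

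Other genes of the cell surface and matrix outside that list also rose. SDC2, the heparan sulfate proteoglycan syndecan-2, had levels of 10.63 and 11.30 with siRNA#2, against 9.38 and 9.63 with siRNA#1 (change 1.46 ± 0.18, adjusted p = 0.00682). OLFML2B, a secreted protein with an olfactomedin domain, had levels of 9.78 and 10.17 with siRNA#2, against 8.44 and 8.68 with siRNA#1 (1.42 ± 0.17, adjusted p = 0.00623). CDH11, a cadherin of mesenchymal cells, stood at 9.68 and 10.13 with siRNA#2 and at 8.92 and 9.01 with siRNA#1 (0.94 ± 0.13, adjusted p = 0.00966). All 3 were also called with a spread per group, at adjusted p = 0.0357, 0.0499 and 0.0439 in that order, and none of their groups overlapped. For these 9 called genes in and outside the list, a fit without 1 siRNA#2 array measured no spread within that group. A call kept in such a fit therefore says little about them. Without siRNA#1 replicate 1 MMP1 alone stayed called, and without siRNA#1 replicate 2 there were 5.

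Among inflammatory genes few were called, but CCL2, the chemokine that attracts monocytes, showed the largest rise among the genes whose siRNA#2 arrays lay within 0.5 of the change of each other. CCL2 had levels of 8.52 and 9.82 with siRNA#2 and 5.86 and 6.35 with siRNA#1, a rise of 8.36-fold (3.06 ± 0.33 on the log2 scale, adjusted p = 0.00497, and 0.0173 with a spread per group). The scramble arrays, at 4.08 and 4.39, lay below both. VCAM1, an adhesion molecule for leukocytes, had levels of 7.76 and 9.30 with siRNA#2 and 6.20 and 6.54 with siRNA#1 (2.16 ± 0.37, adjusted p = 0.022, and 0.0499 with a spread per group). Its groups did not overlap, though the siRNA#2 arrays lay 1.53 apart. These were the 2 members called, both higher, of 27 genes of the NF-kB and cytokine list, against 1.84% of all genes called higher. The median change over the list was 0.10, at 0.04 for siRNA#2 replicate 1 and 0.36 for replicate 2.

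NF-kB is the family of factors that drives many inflammatory genes and is known to bind the promoters of several adhesion molecules. The window around the start of VCAM1 is shown because VCAM1 is 1 of the 2 members called, with the motif GGGNTTTCC in capitals, searched on both strands with no overlap between matches. It is the RefSeq window of build GRCh38.p14 on the plus strand, which begins 250 bases before the gene's start, at chr1:100719492-100719791.
VCAM1: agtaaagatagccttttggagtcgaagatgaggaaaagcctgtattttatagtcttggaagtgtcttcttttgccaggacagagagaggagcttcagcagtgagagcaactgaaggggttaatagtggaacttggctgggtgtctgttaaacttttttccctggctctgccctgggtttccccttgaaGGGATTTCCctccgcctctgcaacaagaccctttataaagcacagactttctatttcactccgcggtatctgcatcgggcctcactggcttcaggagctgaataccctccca
Of the 23 genes of the list with a promoter entry, 8 (34.8%) held the motif in at least 1 window, and of their 27 windows 29.6% did, against 1.86% of all 35116 windows. A match is a description of the letters in the window and not a site shown to be bound.

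No interferon-stimulated gene of 25 measured was called by limma, with a median change of 0.07. Against 2.72% of all genes called in either direction, that count says little. CXCL10, a chemokine induced by interferon, was called apart from that list. It had levels of 5.91 and 7.18 with siRNA#2, against 3.94 and 4.86 with siRNA#1, and the scramble arrays at 7.14 and 7.54 lay closest to the higher siRNA#2 array. The change of 2.14 ± 0.38 passed the shared fit only (adjusted p = 0.0249, and 0.124 with a spread per group). GPR183, an oxysterol receptor that guides immune cells, and SECTM1, a secreted and membrane protein that binds the T cell molecule CD7, rose by 1.45 (adjusted p = 0.0248) and 1.07 (adjusted p = 0.022). EIF2AK2, the kinase PKR that double-stranded RNA activates, rose by 0.51 (adjusted p = 0.0391). It was the 1 member called of 10 sensors of double-stranded RNA and their partners, against 1.84% of all genes called higher. With a spread per group CXCL10, GPR183, SECTM1 and EIF2AK2 were not called by limma (adjusted p from 0.124 to 0.240). EIF2AK2 was also not called by limma with a replicate block (adjusted p = 0.0749) or with the mean of the probe sets (adjusted p = 0.0911). Without siRNA#2 replicate 2 CCL2 and VCAM1 stayed called of these 6 genes, without siRNA#1 replicate 1 there were 0, and without siRNA#1 replicate 2 there was 1.

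Cholesterol and fatty acid synthesis was the list with the most calls. Sterol-regulated genes are switched on by the factors SREBP-1 and SREBP-2, encoded by SREBF1 and SREBF2, which are held in the endoplasmic reticulum by the INSIG proteins when sterols are plentiful. Of 23 members measured, 7 were called higher (SCD, INSIG1, SREBF1, MSMO1, LSS, SREBF2 and ACACA) and 1 lower (EBP). The 7 make 30.4% of the list, against 1.84% of all genes called higher. As the list was chosen with earlier results of these data known, that share is no independent evidence. With a spread per group SCD alone was called of the 23. The groups did not overlap for 17 members (73.9%) in the higher direction, against 22.1% of all genes, and for 2 in the lower direction. The median change over the list was 0.35, at 0.34 for siRNA#2 replicate 1 and 0.49 for replicate 2, so that both arrays contributed.

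SCD, the desaturase that makes monounsaturated fatty acids, had levels of 10.71 and 11.48 with siRNA#2, against 9.19 and 9.58 with siRNA#1 (1.71 ± 0.22, adjusted p = 0.00722, and 0.0429 with a spread per group). Averaged over its probe sets the change was 1.12. INSIG1, the sterol-induced anchor of the SREBP factors, stood at 11.87 and 12.42 with siRNA#2 and at 10.98 and 11.07 with siRNA#1 (1.12 ± 0.16, adjusted p = 0.0132, and 0.052 with a spread per group). For both genes the siRNA#2 arrays lay above both siRNA#1 arrays. SREBF1 had levels of 7.37 and 7.81 with siRNA#2, against 6.37 and 6.67 with siRNA#1 (1.07 ± 0.16, adjusted p = 0.0145, and 0.0986 with a spread per group). MSMO1, a sterol demethylase, followed with 11.31 and 11.69 with siRNA#2 and 10.67 and 10.74 with siRNA#1 (0.80 ± 0.12, adjusted p = 0.0166, and 0.0587 with a spread per group).

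The other called members moved by less. LSS, which closes the sterol ring system, changed by 0.61, SREBF2 by 0.56 and ACACA, the carboxylase that starts fatty acid synthesis, by 0.45, with adjusted p between 0.0333 and 0.0497, and between 0.148 and 0.253 with a spread per group. EBP, a sterol isomerase, fell by 0.54 (adjusted p = 0.0359, and 0.259 with a spread per group). LSS and EBP each had a probe set of the opposite sign, and their mean changes over probe sets were 0.18 and -0.17. LSS, SREBF2, ACACA and EBP were all not called by limma on the mean of the probe sets (adjusted p from 0.0645 to 0.432). The same 4 were not called with a replicate block added (adjusted p from 0.0516 to 0.0859). PLIN2, the coat protein of lipid droplets, fell and lies outside the list. It had levels of 11.01 and 10.39 with siRNA#2 and 11.89 and 11.77 with siRNA#1 (-1.13 ± 0.20, adjusted p = 0.022, and 0.124 with a spread per group). Without siRNA#2 replicate 2 SCD, INSIG1, SREBF1 and MSMO1 stayed called of these 9 lipid genes, without siRNA#1 replicate 2 there were 2, and without siRNA#1 replicate 1 there were 0.

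The promoter windows of SCD and INSIG1 are printed because these were the members with the largest changes. Capitals mark matches to CCAAT, the box bound by NF-Y, and to CACNCCAC, a form of the sterol regulatory element, on either strand (on the minus strand they read ATTGG and GTGGNGTG). Both windows are from RefSeq, build GRCh38.p14, plus strand, at chr10:100346983-100347282 for SCD and chr7:155297628-155297927 for INSIG1, with no overlapping matches.
SCD: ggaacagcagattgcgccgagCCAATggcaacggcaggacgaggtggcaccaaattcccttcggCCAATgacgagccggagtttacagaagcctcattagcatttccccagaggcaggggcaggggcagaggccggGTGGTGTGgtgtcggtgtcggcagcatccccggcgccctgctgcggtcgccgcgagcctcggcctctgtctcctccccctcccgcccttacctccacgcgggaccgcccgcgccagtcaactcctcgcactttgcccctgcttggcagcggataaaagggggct
INSIG1: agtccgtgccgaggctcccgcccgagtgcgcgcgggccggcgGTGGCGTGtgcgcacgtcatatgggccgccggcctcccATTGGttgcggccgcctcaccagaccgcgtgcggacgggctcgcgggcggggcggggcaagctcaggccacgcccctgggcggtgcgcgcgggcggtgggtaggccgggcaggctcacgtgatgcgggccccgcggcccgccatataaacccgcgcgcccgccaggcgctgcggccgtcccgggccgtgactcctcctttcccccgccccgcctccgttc
CCAAT was found for 17 of the 20 list genes with a promoter entry (85.0%), and in 72.4% of their 29 windows, against 34.6% of all 35116 windows. CACNCCAC was found for 6 of the 20 genes (30.0%), and in 24.1% of their windows, against 5.87% of all windows. These shares describe letters in fixed windows and were not tested against the changes.

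Several genes for transcription factors and other regulators were called higher with siRNA#2. KLF9, a zinc finger factor induced by glucocorticoid and thyroid hormone, had levels of 9.31 and 10.20 with siRNA#2, against 7.86 and 7.84 with siRNA#1. Its groups were far apart, with a change of 1.90 ± 0.23 (adjusted p = 0.00677, and 0.0355 with a spread per group), but 1 of its 3 probe sets had the opposite sign and the mean over them was 1.08. TSC22D3, known as the glucocorticoid-induced leucine zipper, had levels of 9.27 and 9.84 with siRNA#2 and 8.37 and 8.54 with siRNA#1 (1.10 ± 0.16, adjusted p = 0.0131, and 0.0499 with a spread per group). CEBPD, a C/EBP factor of the acute phase response, stood at 10.59 and 10.79 with siRNA#2 and 9.53 and 9.81 with siRNA#1 (1.02 ± 0.11, adjusted p = 0.00497, and 0.0499 with a spread per group). In none of the 3 did the groups overlap, and the siRNA#2 arrays agreed most closely for CEBPD.

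AHR, the receptor that senses aryl hydrocarbons, had levels of 9.85 and 10.28 with siRNA#2 and 8.81 and 8.84 with siRNA#1 (1.24 ± 0.15, adjusted p = 0.00623, and 0.0499 with a spread per group). DEPP1, a gene induced by FOXO factors, gave 6.49 and 6.52 with siRNA#2, against 5.02 and 5.34 with siRNA#1 (1.33 ± 0.14, adjusted p = 0.00497, and 0.0499 with a spread per group). The 2 siRNA#2 arrays of DEPP1 were nearly equal. EGR3, an immediate early zinc finger factor, was the opposite case, at 5.70 and 7.90 with siRNA#2 and 4.08 and 4.41 with siRNA#1. Its mean change of 2.56 ± 0.53 was among the largest, yet the siRNA#2 arrays lay 2.20 apart (adjusted p = 0.0395, and 0.0713 with a spread per group). NEDD9, a scaffold protein of focal adhesions, was spread likewise, at 6.86 and 8.58 with siRNA#2 and 5.49 and 5.88 with siRNA#1 (2.04 ± 0.45, adjusted p = 0.0489, and 0.106 with a spread per group).

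MEOX2, a homeobox factor of mesoderm, was higher on replicate 1 than on replicate 2 of siRNA#2, at 8.86 and 8.37, against 7.38 and 7.48 with siRNA#1 (1.19 ± 0.20, adjusted p = 0.022). A second probe set of MEOX2 had the opposite sign, and the mean of both was 0.47. ST18, a zinc finger factor, was called lower at levels of 3.19 and 3.06 with siRNA#2 and 4.02 and 3.92 with siRNA#1, all at or below the lower quartile of the arrays. Of the 9 regulators and scaffold genes given here, 7 stayed called without siRNA#2 replicate 2, 3 without siRNA#1 replicate 2 and 0 without siRNA#1 replicate 1.

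Among surface and secreted proteins, falls and rises were both seen. TMEM158, a transmembrane protein induced by RAS signalling, had levels of 10.40 and 10.16 with siRNA#2, against 11.65 and 11.64 with siRNA#1, a change of -1.37 ± 0.11 (adjusted p = 0.00125, and 0.0173 with a spread per group). PODXL, the sialomucin podocalyxin, had levels of 8.23 and 7.84 with siRNA#2 and 9.38 and 9.15 with siRNA#1 (-1.23 ± 0.13, adjusted p = 0.00497, and 0.0419 with a spread per group). Both fell by more than the distance between their siRNA#2 arrays, as the choice of these genes required. THBD, the thrombin receptor thrombomodulin, gave 8.37 and 7.19 with siRNA#2 and 9.81 and 9.62 with siRNA#1, a larger but less even fall of -1.94 ± 0.33 (adjusted p = 0.0214, and 0.0664 with a spread per group).

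IL13RA2, a decoy receptor for interleukin-13 that is common on glioblastoma cells, had levels of 3.14 and 3.35 with siRNA#2, 5.12 and 4.56 with siRNA#1 and 6.27 and 6.43 with scramble. The siRNA#2 arrays lay below the lower quartile, so the change of -1.60 ± 0.16 is bounded by background (adjusted p = 0.00497, and 0.0505 with a spread per group). ESM1, a secreted proteoglycan known from endothelium, had levels of 3.90 and 3.20 with siRNA#2, 5.47 and 4.70 with siRNA#1 and 6.92 and 7.78 with scramble. Its change of -1.54 ± 0.32 was called in the shared fit (adjusted p = 0.0393, and 0.202 with a spread per group). Of the 9 endothelium markers 1, TIE1, was called, lower by 0.53 at levels of 3.49 to 4.11, against 0.878% of all genes called lower. The collagen receptor ITGA2, the adhesion receptor ADGRG1, the keratin KRT7, the smooth muscle protein SMTN and the vesicle GTPase RAB27B also fell, by 0.89 to 1.22, with adjusted p from 0.0122 to 0.0391. ADGRG1 had a probe set of the opposite sign, with a mean change of -0.60. KRT7 was the 1 called of 13 epithelium markers, against the same 0.878% of all genes called lower.

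ANGPT1, a ligand of the TIE2 receptor, rose, at 7.52 and 8.06 with siRNA#2, against 6.54 and 6.68 with siRNA#1 (1.18 ± 0.16, adjusted p = 0.00897, and 0.0439 with a spread per group). PDGFRB, a receptor for platelet-derived growth factor, had levels of 8.55 and 9.70 with siRNA#2 and 7.04 and 7.45 with siRNA#1 (1.88 ± 0.30, adjusted p = 0.0189, and 0.0514 with a spread per group). Its relative PDGFRA, often amplified in glioma, had levels of 7.71 and 8.90 with siRNA#2 and 6.74 and 6.77 with siRNA#1 (1.55 ± 0.28, adjusted p = 0.0268, and 0.0499 with a spread per group). Of the 3 probe sets of PDGFRA at least 1 had the opposite sign, and their mean change was 0.56. PDGFRA and the glutamate transporter SLC1A3 were called higher and SOX9 lower of the 20 glial and neural markers. Of all genes 1.84% were called higher and 0.878% lower.

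CCN5, a secreted protein induced by Wnt signalling, had levels of 6.12 and 7.50 with siRNA#2, against 4.65 and 4.72 with siRNA#1 (2.13 ± 0.33, adjusted p = 0.0183, and 0.0419 with a spread per group). GLRB, a subunit of the glycine receptor, had levels of 8.42 and 9.66 with siRNA#2 and 7.45 and 7.47 with siRNA#1 (1.58 ± 0.30, adjusted p = 0.0323, and 0.0499 with a spread per group). In both the siRNA#1 arrays were nearly equal and the siRNA#2 arrays lay over 1 log2 unit apart. Of the 18 surface, secreted and marker genes given here, 13 stayed called without siRNA#2 replicate 2 and 3 without siRNA#1 replicate 2. Without siRNA#1 replicate 1, IL13RA2 and TMEM158 stayed called.

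**Figure D2:**
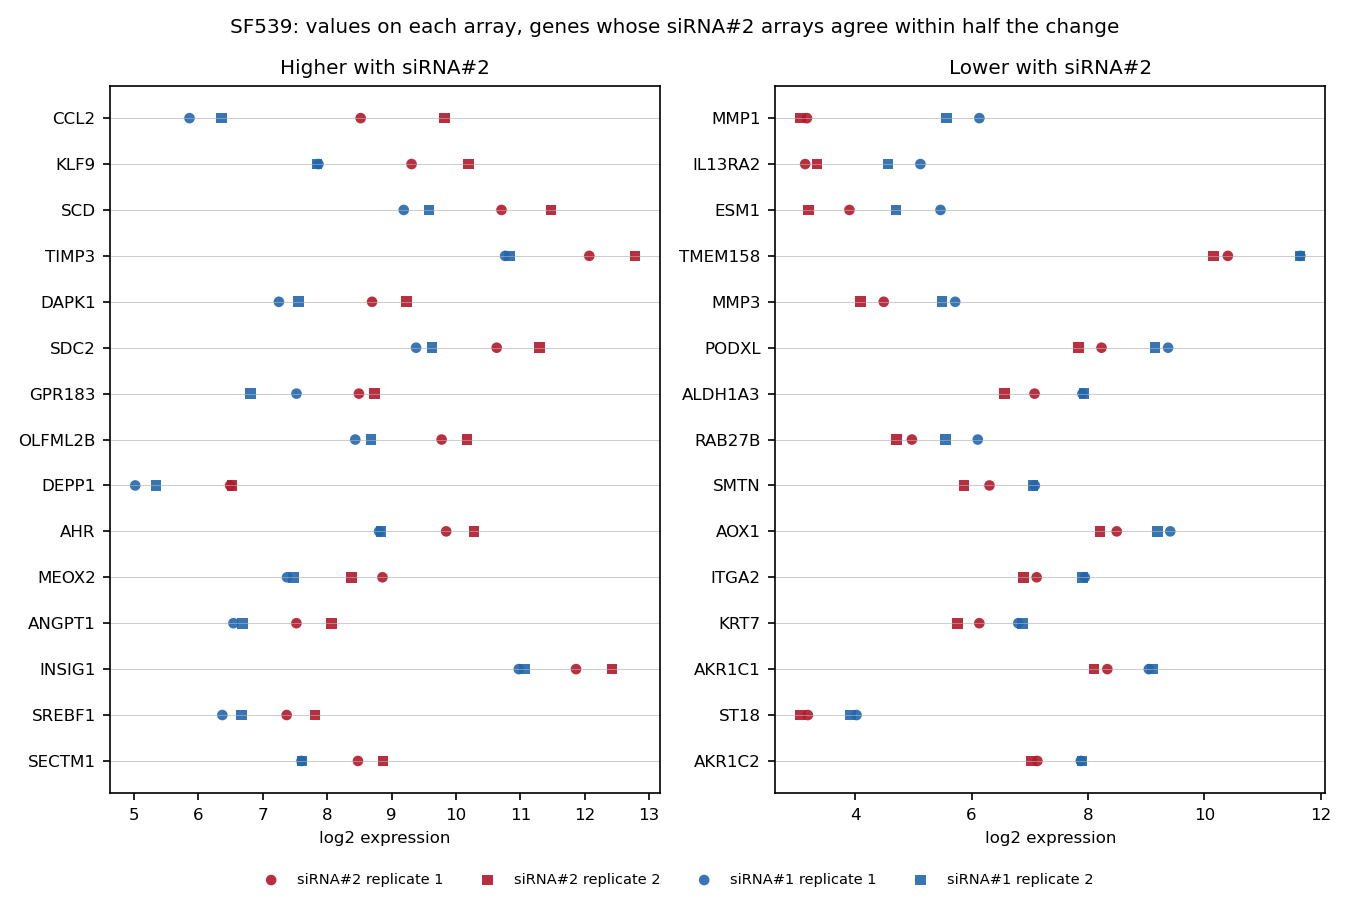
Log2 expression on the x axis for the 15 genes with the largest rise (left) and the 15 with the largest fall (right) among genes called whose siRNA#2 arrays differed by at most 0.5 of the change, with siRNA#2 in red, siRNA#1 in blue, circles for replicate 1 and squares for replicate 2. The colours do not overlap in any row, as the choice of these genes required, and MMP1 and IL13RA2 lie between 3.06 and 3.35 with siRNA#2.

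Several metabolic and signalling enzymes changed as well. ALDH1A3, which makes retinoic acid and is a marker of mesenchymal glioma cells, had levels of 7.08 and 6.56 with siRNA#2 and 7.91 and 7.93 with siRNA#1 (-1.10 ± 0.16, adjusted p = 0.0132, and 0.0514 with a spread per group). AOX1, an aldehyde oxidase, gave 8.50 and 8.21 with siRNA#2, against 9.41 and 9.20 with siRNA#1 (-0.95 ± 0.12, adjusted p = 0.0084). The groups stood apart for each gene. The ketosteroid reductases AKR1C1 and AKR1C2 fell by 0.86 and 0.81 (adjusted p = 0.0197 and 0.0145). Their transcripts are close relatives in sequence, so probes may take up signal of both and the 2 are not counted as independent.

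DAPK1, a kinase linked to cell death, had levels of 8.70 and 9.23 with siRNA#2, against 7.25 and 7.56 with siRNA#1 (1.56 ± 0.21, adjusted p = 0.0084, and 0.0514 with a spread per group). DCLK1, a kinase that binds microtubules, stood at 6.45 and 6.63 with siRNA#2 and 5.52 and 5.60 with siRNA#1 (0.98 ± 0.11, adjusted p = 0.00497, and 0.0499 with a spread per group). ARG2, the mitochondrial arginase, had levels of 5.65 and 7.28 with siRNA#2 and 4.47 and 4.64 with siRNA#1 (1.91 ± 0.38, adjusted p = 0.0359, and 0.0499 with a spread per group), with a probe set of the opposite sign. The organic cation transporter SLC22A4 and the lysosomal membrane protein LAPTM5 fell by 1.41 and 1.35 (adjusted p = 0.0371 and 0.0337), both more on replicate 2 than on replicate 1 of siRNA#2. Of these enzymes and transporters, with the iron-binding protein PIR, 8 of 10 stayed called without siRNA#2 replicate 2, 3 without siRNA#1 replicate 2 and 0 without siRNA#1 replicate 1.

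Across the other pathway lists, calls were few and most did not outlast a change of fit. Of the 21 genes named from these lists in the paragraphs on pathways and in no earlier one, DUSP4 alone was called with a spread per group, SLC7A5 alone without siRNA#1 replicate 2 and 0 without siRNA#1 replicate 1. Without siRNA#2 replicate 2, 8 stayed called (SLC7A5, PSPH, NOP16, ODC1, DUSP4, CCND1, CDKN1B and DKK1). Hypoxia-induced genes had 3 of 15 called higher, against 1.84% of all genes, with a median change of 0.40 that was 0.15 for siRNA#2 replicate 1 and 0.73 for replicate 2. They were DDIT4, an inhibitor of the kinase mTORC1, at 0.83 (adjusted p = 0.0359), PLOD2, a lysyl hydroxylase of collagen, at 0.55 (0.0457) and BNIP3, a receptor for mitophagy, at 0.45 (0.029). Targets of ATF4, the factor of the amino acid response, had 3 of 21 called higher, against the same 1.84%, with a median change of 0.36 that was 0.10 for siRNA#2 replicate 1 and 0.56 for replicate 2. They were the amino acid transporter subunits SLC7A5 (0.88 ± 0.10, adjusted p = 0.00623) and SLC3A2 (0.53, adjusted p = 0.0496) and the serine synthesis enzyme PSPH (0.81, adjusted p = 0.0208). SLC7A5 had levels of 11.03 and 11.19 with siRNA#2, against 10.13 and 10.34 with siRNA#1, and missed the threshold with a spread per group (adjusted p = 0.0514).

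Ribosome biogenesis had 3 of 17 called lower, against 0.878% of all genes, and 0 higher, with a median change of -0.30 that was alike on both siRNA#2 arrays, at -0.28 for replicate 1 and -0.34 for replicate 2. Of the 3, ODC1 fell most (-0.80, adjusted p = 0.0359). It is the first enzyme of polyamine synthesis and no ribosome assembly factor, although the list holds it. The others were NOP16, a nucleolar protein (-0.53, adjusted p = 0.021, with a probe set of the opposite sign), and BYSL, a factor of small subunit assembly (-0.46, adjusted p = 0.0401). NOP16 was not called with the mean of the probe sets. The groups did not overlap for 14 of the 17 members (82.4%) in the lower direction, against 27.9% of all genes. For the 23 mitophagy and autophagy genes, the pathway in which parkin acts, the median change was -0.01. BNIP3 and the ATG8 relative GABARAPL1 (0.59, adjusted p = 0.0357) were called higher, against 1.84% of all genes. PINK1, the kinase upstream of parkin, was called lower, at 8.31 and 7.87 with siRNA#2 and 8.81 and 8.72 with siRNA#1 (-0.67 ± 0.14, adjusted p = 0.0372, and 0.148 with a spread per group).

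Regulators of the G1/S step gave 1 call in each direction of 27, against 1.84% of all genes called higher and 0.878% called lower. Cyclin D1 (CCND1), which starts the passage into S phase, fell, at 9.14 and 8.39 with siRNA#2 and 9.87 and 9.83 with siRNA#1 (-1.09 ± 0.19, adjusted p = 0.0231, and 0.0514 with a spread per group). CCND1 was not called with the mean of the probe sets. The inhibitor CDKN1B (p27) was almost constant within each group, at 10.11 and 10.12 with siRNA#2 and 9.63 and 9.63 with siRNA#1 (0.49 ± 0.07, adjusted p = 0.0138, and 0.0966 with a spread per group). Of 21 MAPK-induced genes, EGR3 was called higher, and CCND1 and the phosphatase DUSP4 (-0.77 ± 0.11, adjusted p = 0.0122, and 0.0499 with a spread per group) lower. Of 16 Wnt pathway genes, CCN5 and the factor TCF7L2 (0.55, adjusted p = 0.0336) were called higher and the Wnt inhibitor DKK1 (-0.73, adjusted p = 0.0189) lower.

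The counts that follow stand against 1.84% of all genes called higher and 0.878% called lower. Of 20 NRF2 targets, PIR (0.68, adjusted p = 0.0371) was called higher and AKR1C1 and AKR1C2 lower. The actin and smooth muscle list of 21 had CNN2, a calponin, higher (0.60, adjusted p = 0.0427) and MYH10, a non-muscle myosin, lower (-0.58, adjusted p = 0.0359) at levels of 3.12 to 3.94. A single member was called in the lysosome list (LAMP2, 0.60, adjusted p = 0.0371, of 24), the unfolded protein response list (SEL1L, 0.47, adjusted p = 0.0411, of 17, with a mean over probe sets of 0.05) and the TGF-beta list (BAMBI, -0.44, adjusted p = 0.0401, of 23). No member was called by limma of the mitosis (28), DNA replication (30), proteasome (27), oxidative phosphorylation (41), histone (17), glycolysis (21), p53 target (10), YAP/TAZ target (17), apoptosis (23), heat shock (15), tRNA synthetase (15), RNA interference (4) or leukocyte (13) lists. Against 2.72% of all genes called in either direction, a count of 0 in lists of this size says little.

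Lists without calls still differed between the siRNA#2 arrays. All 28 mitosis genes were lower on replicate 2 than on replicate 1, with a median of -0.82 for replicate 2 minus replicate 1. The same held for all 27 proteasome genes (median -0.31), all 41 oxidative phosphorylation genes (median -0.29) and 29 of 30 DNA replication genes (median -0.52). Of 28 matrix genes 26 were higher on replicate 2, with a median difference of 1.15. Over all 8545 genes 4314 were lower and 4216 higher on replicate 2, with a median difference of -0.003. Each of these sets 1 array against 1 array, so the members of a list are not replicates. Between the siRNA#1 arrays the medians for these 5 lists lay between -0.02 and 0.04. In bulk RNA, fewer cells of a kind and less RNA per cell cannot be told apart. Without siRNA#2 replicate 1 the calls were 26 of 28 mitosis genes, 20 of 30 replication genes, 23 of 27 proteasome genes, 24 of 41 oxidative phosphorylation genes and 25 of 28 matrix genes, among 27.0% of all genes.

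**Figure D3:**
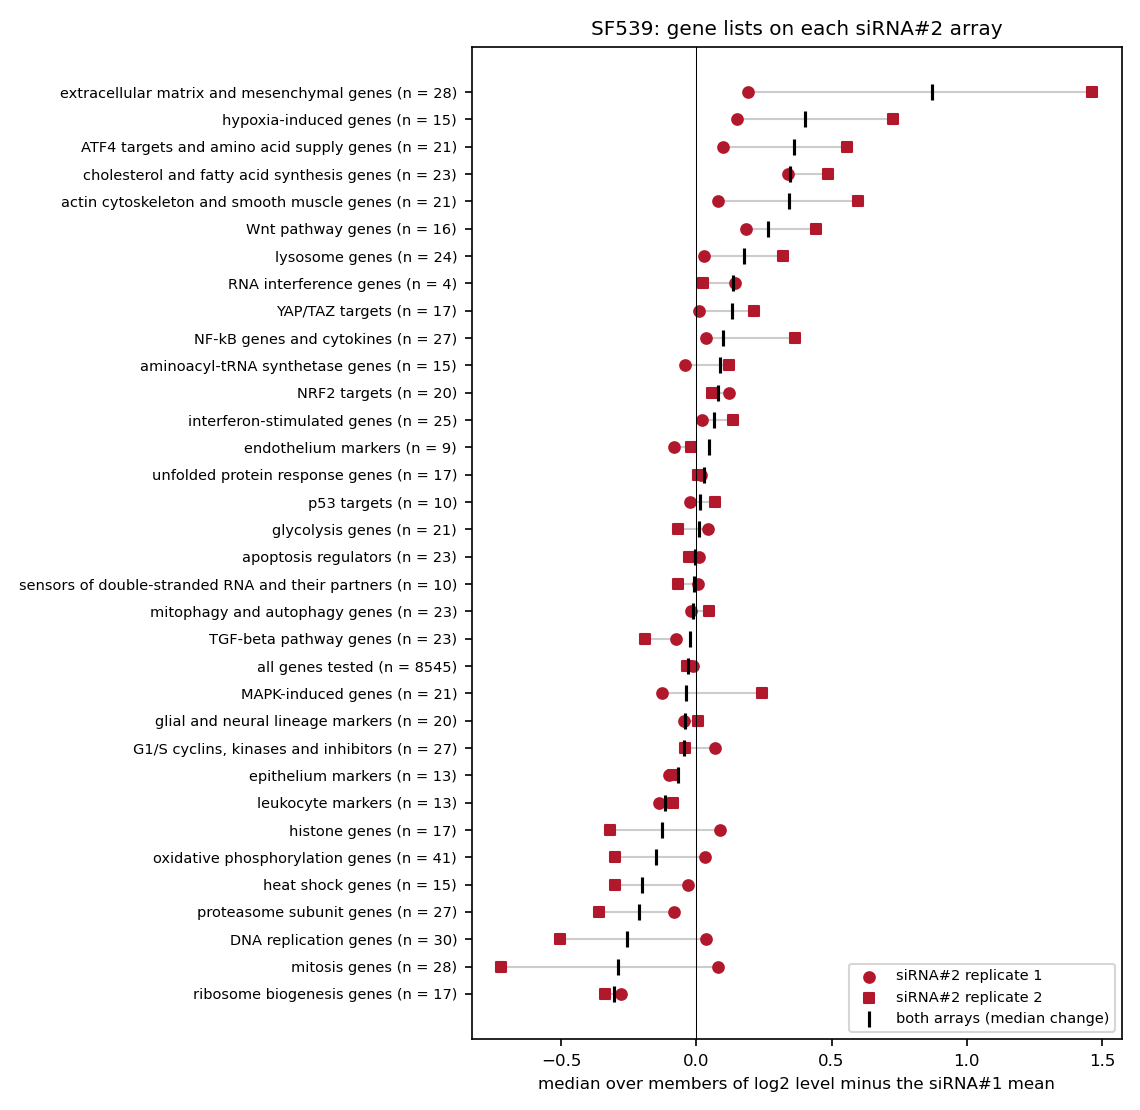
Median over the members of each gene list of the log2 level minus the siRNA#1 mean, on the x axis, for siRNA#2 replicate 1 (circles), siRNA#2 replicate 2 (squares) and both (vertical ticks), with the number of genes measured beside each name. Matrix genes lie at 0.19 on replicate 1 and 1.46 on replicate 2, mitosis genes at 0.08 and -0.72, and cholesterol and fatty acid synthesis genes at 0.34 and 0.49.

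Single genes showed how far apart the siRNA#2 arrays were. These are 1 array against 1 array, with no test. Between the siRNA#2 arrays 232 genes differed by 2-fold or more, 168 higher and 64 lower on replicate 2, against 2 genes between the siRNA#1 arrays. TAGLN, the smooth muscle protein transgelin, stood at 4.08 on replicate 1 and 8.98 on replicate 2 of siRNA#2, and at 3.95 and 3.93 with siRNA#1. CHI3L1, a secreted glycoprotein that marks mesenchymal glioma, stood at 7.24 and 12.04 with siRNA#2, against 6.30 and 6.53 with siRNA#1. POSTN, the matrix protein periostin, stood at 5.18 and 9.73 with siRNA#2, against 3.74 and 4.47 with siRNA#1. In each case replicate 2 was far above the other 3 arrays.

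The growth factor binding protein IGFBP5, the fibulin EFEMP1, the proteoglycan EPYC, the hyaluronidase CEMIP and PRUNE2 showed the same pattern, with replicate 2 above replicate 1 by 2.81 to 4.00. IGFBP5 had a probe set of the opposite sign. EFEMP1 was lower on replicate 1 than with siRNA#1, at 4.68, against 5.12 and 4.81. In the other direction, TXNIP, an inhibitor of thioredoxin induced by glucose, stood at 10.09 and 7.15 with siRNA#2 and 10.35 and 10.42 with siRNA#1. ID1, a target of BMP signalling that blocks differentiation factors, stood at 10.14 and 7.66 with siRNA#2 and 10.63 and 10.58 with siRNA#1. For both genes replicate 1 lay near siRNA#1 and replicate 2 alone was low. CYP1A1, NRG1, FABP5, DLEU2, ID3 and SPC25 differed likewise, by -2.37 to -1.74 for replicate 2 minus replicate 1. None of these 16 genes was called, and their adjusted p ran from 0.0636 to 0.571.

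**Figure D4:**
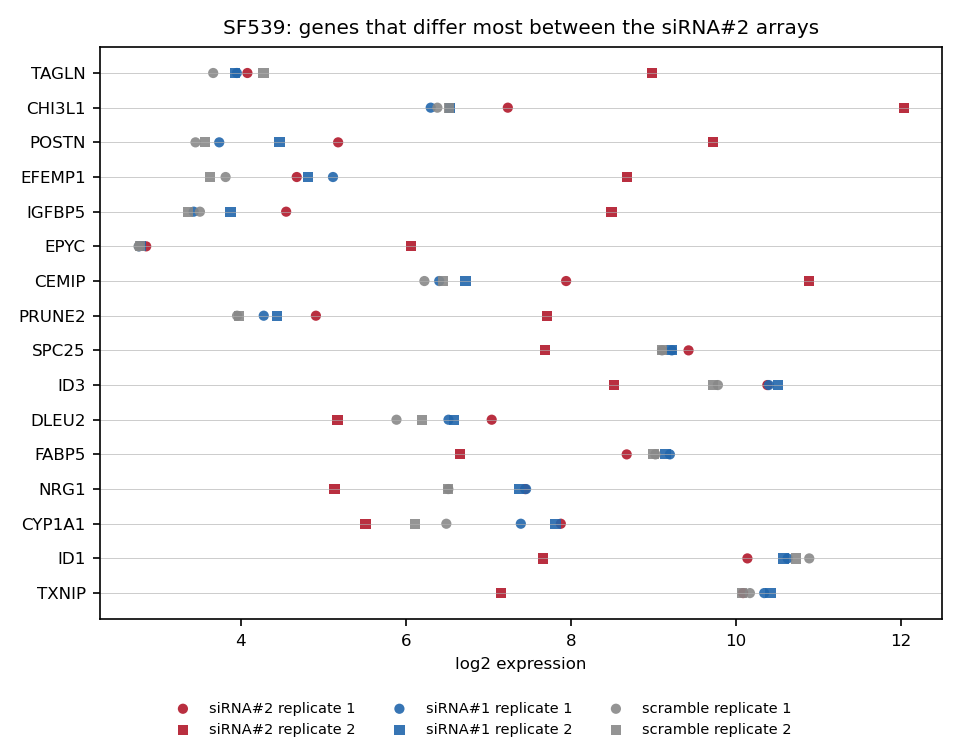
Log2 expression on the x axis for the 8 genes that were higher and the 8 that were lower on siRNA#2 replicate 2 than on replicate 1 by the most, with siRNA#2 in red, siRNA#1 in blue and scramble in grey, circles for replicate 1 and squares for replicate 2. The red square stands alone in most rows, as for TAGLN at 8.98, against 4.08 for the red circle.

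The same contrast in SNB19, set against SF539 because both lines received both siRNAs, gave 518 genes called (6.06%), 263 higher (3.08%) and 255 lower (2.98%) with siRNA#2. The difference between the lines in the contrast was itself called for 285 genes (3.34%), with the SF539 change above the SNB19 change for 179 and below it for 106. Of the 232 genes called in SF539, 71 (30.6%) had a called difference. Called in both lines in the same direction were 23 genes, 17 higher and 6 lower, which is 9.91% of the SF539 calls and 4.44% of the SNB19 calls. Called in both in opposite directions were 18 genes, 7.76% of the SF539 calls and 3.47% of the SNB19 calls. Across all 8545 genes the changes in the 2 lines correlated with r = 0.01. Without SF539 siRNA#2 replicate 1 the difference between lines was called for 2203 genes, without SF539 siRNA#1 replicate 1 for 96, and without any 1 of the other arrays of both siRNAs for 77 to 408. The SNB19 count itself was 134 to 176 without any 1 of its 4 siRNA arrays.

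TIMP3 went opposite ways, as its levels in SNB19 were 6.07 and 6.31 with siRNA#2 and 7.63 and 7.51 with siRNA#1. The SF539 change of 1.63 and the SNB19 change of -1.38 differed by 3.01 ± 0.28 (adjusted p = 0.00051). DAPK1 (1.56 in SF539 and -1.29 in SNB19) and CEBPD (1.02 and -1.03) were likewise called in both lines with opposite signs, with adjusted p of 0.000856 and 0.000318 for the difference. DDIT4 changed by 0.83 in SF539 and by -1.48 in SNB19, and the 15 hypoxia-induced genes had a median change of 0.40 in SF539 (0.15 and 0.73 on the siRNA#2 arrays) and -0.99 in SNB19. The axon guidance protein NAV3 and the metalloreductase STEAP1 fell in SF539, by 0.74 and 0.71, and rose in SNB19, by 0.79 and 0.78.

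Some genes moved alike. TMEM158 changed by -1.37 in SF539 and -1.18 in SNB19, where its levels were 6.96 and 7.06 with siRNA#2 and 8.27 and 8.11 with siRNA#1. PODXL, AKR1C1 and AKR1C2 were also called lower in both lines, with AKR1C1 at -0.86 in SF539 and -1.79 in SNB19. LUM rose by 1.90 in SF539 and 1.71 in SNB19, though its SNB19 levels were at most 4.25. GBP1, a GTPase induced by interferon, rose by 0.86 in SF539 and 1.28 in SNB19, and SDC2, ANGPT1, the matrix protein OLFML2A and the sterol enzymes MSMO1 and LSS were called higher in both.

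Other genes were called in SF539 and not in SNB19. CCL2 changed by 3.06 in SF539, against 0.41 ± 0.33 in SNB19, where it stood at 9.54 and 9.59 with siRNA#2 and 9.12 and 9.20 with siRNA#1. The difference was 2.66 ± 0.47 (adjusted p = 0.0169). For SCD the changes were 1.71 and 0.29, a difference of 1.41 ± 0.31 (adjusted p = 0.0396). MMP1 fell by 2.73 in SF539, while in SNB19 it lay at 2.61 to 2.94 on all 4 siRNA arrays, where a fall could not be measured. MMP3 was also near background in SNB19, at 3.91 to 4.06.

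**Figure D5:**
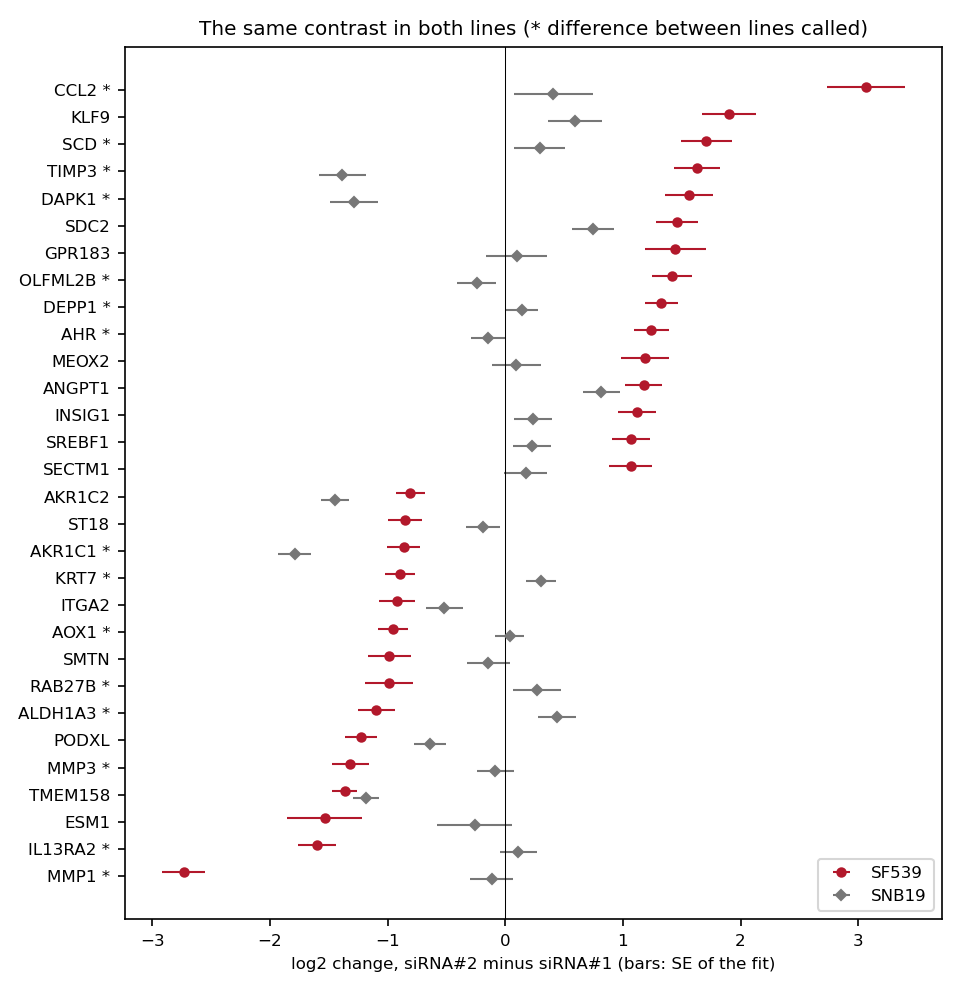
Log2 change, siRNA#2 minus siRNA#1, on the x axis with the SE of the fit as bars, in SF539 (red circles) and SNB19 (grey diamonds), for the 30 genes of the plot of values on each array, with a star where the difference between lines was called. TIMP3 and DAPK1 lie on opposite sides of 0 in the 2 lines, at 1.63 and -1.38 and at 1.56 and -1.29, while TMEM158 lies at -1.37 and -1.18.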

How the data were processed

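Total RNA of the 12 samples was biotin-labelled and hybridised to 1 Affymetrix array each, per the labels. The deposited values are log2 expression values, and Partek is named in the submitters' processing notes. Background correction, normalization and probe summary are unstated in the notes and labels, and the values carry no detection call.

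Of 16376 probe sets, 14038 had 1 gene, 792 several and 1546 none in the platform annotation used, and probe sets with several genes were not named. Symbols of 14028 were updated through Entrez identifiers with RefSeq GRCh38.p14. For a gene with several probe sets, 3361 of the 8545 genes, the one with the highest mean over the 12 arrays was used. A model of 6 group means was fitted to the 12 arrays with limma 3.58.1 in R 4.3.3 (lmFit and eBayes, two-sided, Benjamini-Hochberg adjustment at 0.05, with 6 degrees of freedom from the residuals and 3.65 from the prior). With 2 arrays a group, their number limits the precision. The spread per group came from limma's array weights with 1 weight per group. Errors of changes are standard errors of the fit. The fit was tested on simulated data.

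Named genes are the 15 largest rises and 15 largest falls among genes called whose siRNA#2 arrays lay on 1 side of both siRNA#1 arrays and differed by at most 0.5 of the change, the 6 largest each way among the other genes called, up to 4 called members of each list by smallest p, the genes called with a spread per group, the 5 largest differences between lines each way, and the 8 largest differences between the siRNA#2 arrays each way. LSS, SREBF2, ACACA, EBP, PDGFRB, GBP1, OLFML2A, TRIL, DOK5, PLCB1, NAV3 and STEAP1, and the GFAP levels, were chosen after their values were seen. The members and gene lists were chosen with earlier results of these data known. The replicate numbers were not used to pair the arrays in the main fit. Deviations of same-numbered siRNA#1 and siRNA#2 arrays from their group means correlated over genes with r = 0.0542 in SF539 and 0.0123 in SNB19. A low r cannot show that arrays were unpaired, and the scramble arrays were not part of it. Promoter windows are RefSeq entries. Alternatives tried were other samples in the fit, scaling, filter, probe set rule, variance prior, weights, a minimum fold, a replicate block and leaving out each array.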

Additional observations from a re-analysis of the deposited data

Results flagged for a closer look

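The difference between SF539 and SNB19 in the contrast of siRNA#2 with siRNA#1 was tested for each gene, and the genes below are set apart because the 2 lines gave different changes. It was called for 285 genes in limma. Values are the SF539 change minus the SNB19 change on the log2 scale. Among matrix and secreted genes it was 4.57 for the hyaluronidase CEMIP, 3.01 for TIMP3, 2.66 for CCL2, 2.13 for CCN5, 1.66 for OLFML2B and 1.23 for PLOD2, and -2.62 for MMP1 and -1.23 for MMP3. Among cytokine genes and receptors it was 2.09 for the Toll-like receptor partner TRIL, -2.70 for IL11, -2.31 for CXCL8, -2.30 for CXCL2 and -1.71 for IL13RA2. Among enzymes and carriers it was 3.25 for AKR1B10, 2.85 for DAPK1, 1.82 for the phospholipase PLCB1, 1.61 for DCLK1, 1.41 for SCD, 1.06 for PSPH, 0.93 for AKR1C1 and 0.72 for SLC7A5, and -0.90 for EBP, -0.99 for AOX1, -1.49 for STEAP1 and -1.54 for ALDH1A3. Among regulators it was 2.31 for DDIT4, 2.05 for CEBPD, 1.90 for the adaptor DOK5, 1.44 for BNIP3, 1.39 for AHR, 1.19 for DEPP1, 0.99 for TSC22D3 and 0.51 for CDKN1B, and -0.60 for NOP16, -0.74 for DUSP4 and -1.79 for CCND1. For the surface protein CD180 it was 2.98, for the calcium pump inhibitor PLN -2.75, for NAV3 -1.53, for RAB27B -1.26 and for KRT7 -1.20. A difference can come from the change in either line. IL11, CXCL8 and CXCL2 changed by -0.14, -0.34 and -0.75 in SF539 and were not called there. AKR1B10, CD180, PLN and CEMIP were not called in SF539 either. CEMIP rests on siRNA#2 arrays that lay 2.94 apart in SF539. In SNB19 MMP1 and MMP3 lay near background on every siRNA array, so no fall could show there.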

How the results depend on the processing

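The 232 calls in SF539 rest on pooling the spread over groups. There were 0 from the 4 SF539 siRNA arrays alone and 0 from the 6 SF539 arrays, where the smallest adjusted p was 0.0613 and 1194 genes had an unadjusted p under 0.05, against 943 from the 4 arrays and 1956 in the 12-array fit of limma. With array weights there were 24 (1 per array) or 23 (1 per group), with a 1.5-fold minimum 1, with a trended and robust prior 375 and without the dimmest 40% of genes 356. Leaving out 1 array gave 3 to 2303. Quantile normalization (228), median centring (197), the mean of probe sets (185) and every probe set alone (275) stayed within 1.5 times. In SNB19 the 518 calls became 1427 or 1436 with weights per array or per group, 35 with a 1.5-fold minimum and 134 to 176 with 1 array left out. For the difference between lines, 285 became 429 with the trended prior, 30 with the minimum and 77 to 2203 with 1 array left out. A lone remaining array was assumed to vary like the other groups. The causes were not tested.

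With a replicate block added, 138 genes were called in SF539, 360 in SNB19 and 199 for the difference, although the samples share only a number. Of the 42 genes named for their change (15 each way with siRNA#2 arrays within 0.5 of it and 6 each way with arrays further apart), 40 kept their call under the block, 42 under quantile normalization and median centring, 35 with the mean of probe sets, 16 with weights per group, 31 without siRNA#2 replicate 2, 15 without siRNA#1 replicate 2 and 3 without siRNA#1 replicate 1.

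Of the 42, MEOX2, RAB27B, AOX1, NEDD9, ARG2, LAPTM5 and CCND1 lost their call with the mean of probe sets. Other named genes that lost it there include SPARC, EIF2AK2, PLOD2, TCF7L2, LAMP2, SEL1L, GBP1 and PLCB1. No change of these 42 turned sign. With 1 array left out none could, since the siRNA#2 arrays lay on 1 side of the siRNA#1 arrays for every gene called. Among other named genes, all without a call in SF539, the change ranged with 1 array left out over both signs for CYP1A1 (-2.09 to 0.27), DLEU2 (-1.38 to 0.49), EFEMP1 (-0.29 to 3.71), NRG1 (-2.28 to 0.031), SPC25 (-1.53 to 0.21), PLN (-0.26 to 0.021), IL11 (-0.91 to 0.62), AKR1B10 (-0.34 to 0.084) and CD180 (-0.015 to 0.29). PLN also turned with the mean of probe sets (0.014).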
